A study of Mus musculus with 6 samples.

Results

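The heat shock proteins and DnaJ co-chaperones were taken as the genes whose symbol opens with Hspa, Hspb, Hspd, Hspe, Hsph, Hsp9, Dnaja, Dnajb or Dnajc followed, for the Dnaj genes, by a number. This rule found 74 of the 23253 genes listed in any of the 6 testis libraries. No measured value entered it, but members and roles were chosen with earlier results of these data known. Of the 74, 72 had enough reads for the count test, and Hspb2 and Hspb3, with at most 11.5 and 4 counts in any library, did not. The members took 1.18 to 1.31% of the counts of a library.

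Molecular chaperones bind unfolded or partly folded proteins and help them reach or regain their shape. HSPA (Hsp70) proteins do this in cycles driven by ATP, in which DnaJ (Hsp40) co-chaperones deliver the client and stimulate hydrolysis, and Hsp90 proteins act on near-native clients such as kinases and steroid receptors. Some family members are present in all cells, some are switched on by heat shock factors after stress, and male germ cells make their own set, among them Hspa2, which is needed for meiosis in spermatocytes, and Hspa1l, a gene of spermatids.

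The libraries hold mRNA isolated with oligo(dT), after DNase treatment, from testes of 8-month-old C57BL/6 mice; 3 are labelled control and 3 L3mbtl2 cKO (conditional knockout). L3MBTL2 is a subunit of the Polycomb complex PRC1.6, and the comparison asks how its loss alters testicular mRNA. The labels name neither a Cre driver nor the cell type of the deletion, and they do not say whether each library is another mouse, so p-values reflect library-to-library spread alone, and some of it may be technical. The targeted gene went against the labels: L3mbtl2 had 658, 705 and 673 expected counts in the labelled-control libraries and 1030, 1105 and 1031 in the labelled-cKO libraries, and the deposited tables' own names carry the opposite genotype. The groups did not overlap, and the log2 fold change of the counts was 0.67 (SE 0.10). In FPKM the gap was smaller, at 14.0, 14.9 and 13.6 against 15.9, 17.1 and 16.03 (0.19 on the log2(FPKM + 1) scale), and the deposited transcript length was 2717 ± 106 bases against 3493 ± 4.83 (SD, n = 3 each). The adjusted p of the counts was 0.166 in edgeR's quasi-likelihood test and 0.000497 in DESeq2, and ran from 0.000497 to 0.377 over the alternative fits. All differences below are the labelled-cKO libraries minus those labelled control, and every direction would turn if the labels were exchanged.

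The libraries had totals of 17689205 to 18822050 expected counts. Markers of spermatocytes and spermatids were abundant in all 6, and no marker of Leydig or Sertoli cells stood at 0 in any of them. The labelled-control libraries differed more from one another than the labelled-cKO libraries did, and replicate 3 stood farthest from the rest: correlations of log2 CPM (counts at equal library size) across genes were 0.937 to 0.972 among the labelled-control libraries and 0.981 to 0.982 among the labelled-cKO libraries. Across the 72 members the median coefficient of variation was 14.3% in the labelled-control libraries and 4.53% in the labelled-cKO libraries. Summed FPKM (fragments scaled by transcript length and library depth) of the 8 Leydig markers was 3634, 1693 and 8980 in the labelled-control libraries and 1263 to 1352 in the labelled-cKO libraries, and that of the 10 Sertoli markers was 1298, 864 and 2309 against 648 to 695. The 8 spermatogonia markers were lower too, summing to 99.8, 87.2 and 122 against 71.5 to 75.1. The 8 macrophage markers summed to 133, 56.3 and 267 against 53.0 to 63.8, with overlap. The 7 myoid markers summed to 259, 240 and 277 against 231 to 247, with overlap. The 6 endothelial markers, at 17.6, 13.7 and 23.9 against 10.25 to 14.5, overlapped as well. So did the 8 spermatocyte markers, at 2903, 3355 and 2496 against 3310 to 3442. Spermatid markers were higher in the labelled-cKO libraries, with no overlap. The 8 of elongating spermatids summed to 24389, 25793 and 18501 against 26647 to 29054, and the 8 of round spermatids to 1242, 1312 and 1009 against 1388 to 1451. The part of these mixtures in each chaperone result was not tested. In bulk tissue, fewer cells of a type and less RNA per cell cannot be told apart.

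Germ cell chaperones made up much of the chaperone mRNA of these testes. The highest mean FPKM of all 74 members belonged to Dnajb3, a J-protein of spermatids, followed by the Hsp90 gene Hsp90aa1, the small heat shock gene Hspb9, Hspa2, Hspa1l and Dnajb8. The 10 members placed in the testis role (Hspa2, Hspa1l, Hspa4l, Hspb9, Dnajb3, Dnajb7, Dnajb8, Dnajb13, Dnajc5b and Dnajc5g) held 46.4, 47.8 and 40.1% of the members' summed FPKM in the labelled-control libraries and 50.2, 50.1 and 49.3% in the labelled-cKO libraries. The groups did not overlap (two-sided exact permutation p = 0.1, the smallest that 3 against 3 allows). The ubiquitous Hspa8 came 14th and Hsp90ab1 15th.

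Gene by gene, no member passed in the main test. In edgeR's quasi-likelihood test at an adjusted p of 0.05, 0 of the 72 members were called higher and 0 lower, as was the case for all 18269 genes tested (0% in each direction). At an unadjusted p under 0.05, 12 members were higher and 8 lower, next to 8.85 and 18.8% of all genes. On TMM-scaled counts, 21 members had every labelled-cKO library above every labelled-control one, and 11 had every one below, next to 18 and 19.8% of all genes. DESeq2 called 1 member higher (Dnajb8) and 4 lower (Hspd1, Hspb1, Dnajc5 and Hspa8) of 72, next to 0.405 and 7.67% of 17789 genes. For these 5 members the adjusted p ran from 0.00898 (Hspb1, edgeR without the library labelled control replicate 2) to 0.377 over the alternative fits. The edgeR count hung on 1 library. With control replicate 2 left out, edgeR called 17 members higher, next to 11% of all genes, and 10 lower, next to 20.7%. Of the 10 testis members, 9 were among the 17, all except Hspa2.

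**Figure D1:**
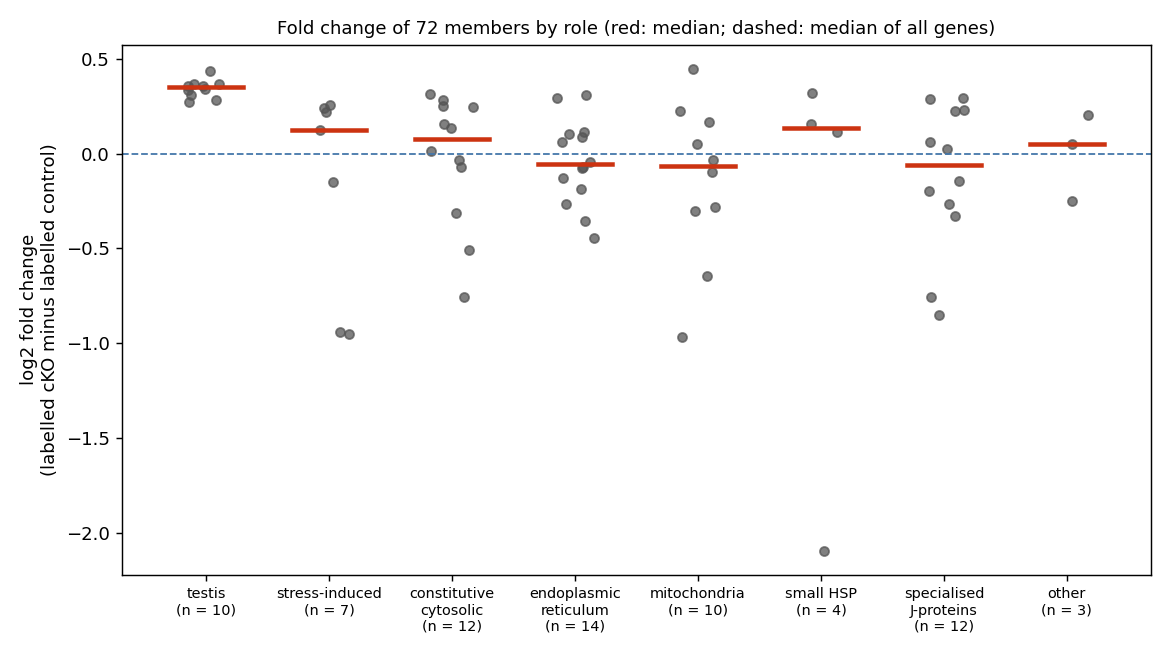
Log2 fold change (labelled-cKO libraries minus labelled-control libraries; edgeR on TMM-scaled counts) of the 72 members tested, 1 point a gene, by role, with the median of each role in red and the median of all 18269 genes dashed. The 10 testis members lie between 0.27 and 0.44, while the stress-induced, constitutive and mitochondrial members lie on both sides of 0.

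The 10 testis chaperones all had a positive log2 fold change in the main fit, though none passed, with values from 0.27 to 0.44 with a median of 0.35, while the median of all genes was -0.0048. The list of this role was drawn up with earlier results of these data known. Of the 10, 7 had an unadjusted p under 0.05 (8.85% of all genes did in this direction) and 5 had no overlap between groups on TMM-scaled counts (18% of all genes). The 10 signs were positive under all 14 alternative fits, and the median became 0.23 with control replicate 3 left out and 0.25 when counts were scaled by library totals. On TMM-scaled counts all 10 were ordered alike among the labelled-control libraries, replicate 2 being the highest of these and replicate 3 the lowest of all 6 libraries. That order of the labelled-control libraries held for 29.3% of all genes.

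Hspa2, on chromosome 12 (76403812 to 76406938 in GRCm38.p6, plus strand), stood at 404, 393 and 298 FPKM in the labelled-control libraries and 423, 432 and 412 in the labelled-cKO libraries. The lowest library labelled cKO exceeded the highest labelled control, but by less than the gap between replicate 3 and the others labelled control. Its log2 fold change was 0.31 (SE 0.14; edgeR adjusted p = 0.195), and 0.17 without the library labelled control replicate 3. Hspa1l had 324, 335 and 258 FPKM against 379, 353 and 355, again with no overlap (log2 0.34, SE 0.13; edgeR adjusted p = 0.170). Hspa4l, an Hsp110-type partner of Hsp70 proteins that is abundant in germ cells, did overlap, at 219, 259 and 199 FPKM against 259, 244 and 266.

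Among the testis J-proteins, Dnajb8 had the largest fold change and was the only member that DESeq2 called higher. Its FPKM was 276, 308 and 236 in the labelled-control libraries and 363, 339.9 and 335 in the labelled-cKO libraries, with no overlap (log2 0.44, SE 0.13; adjusted p = 0.166 in edgeR and 0.0490 in DESeq2). Dnajb3 stood at 629.9, 711 and 508 FPKM against 757, 751 and 726. The groups did not overlap, and the 3 labelled-control libraries were spread more widely than the 3 labelled cKO. Dnajb13, which sits in the radial spokes of the sperm axoneme, had 169.5, 195 and 141 FPKM against 197, 209 and 189.8, and here the groups overlapped in FPKM but not on TMM-scaled counts. Dnajb7, Dnajc5b and Dnajc5g, the last 2 being cysteine string proteins of the testis, had log2 fold changes of 0.37, 0.35 and 0.35, and their groups overlapped. Hspb9, a small heat shock protein gene of the testis, had 486, 549.7 and 375 FPKM against 527, 519 and 550.1, with overlap.

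Genes with a single exon are common in this role. Of the 10 testis members, 4 (Dnajb3, Dnajb7, Dnajb8 and Hspb9) had 1 exon in all their coding transcripts, as had 8 of the 74 members in all. Dnajb7 lies on chromosome 15 (81407088 to 81408273, minus strand) within Xpnpep3 on the opposite strand, and Dnajb3 overlaps genes of the Ugt1a cluster on the opposite strand. The sources used here do not say whether counting used strand, so reads of such pairs may be shared.

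**Figure D2:**
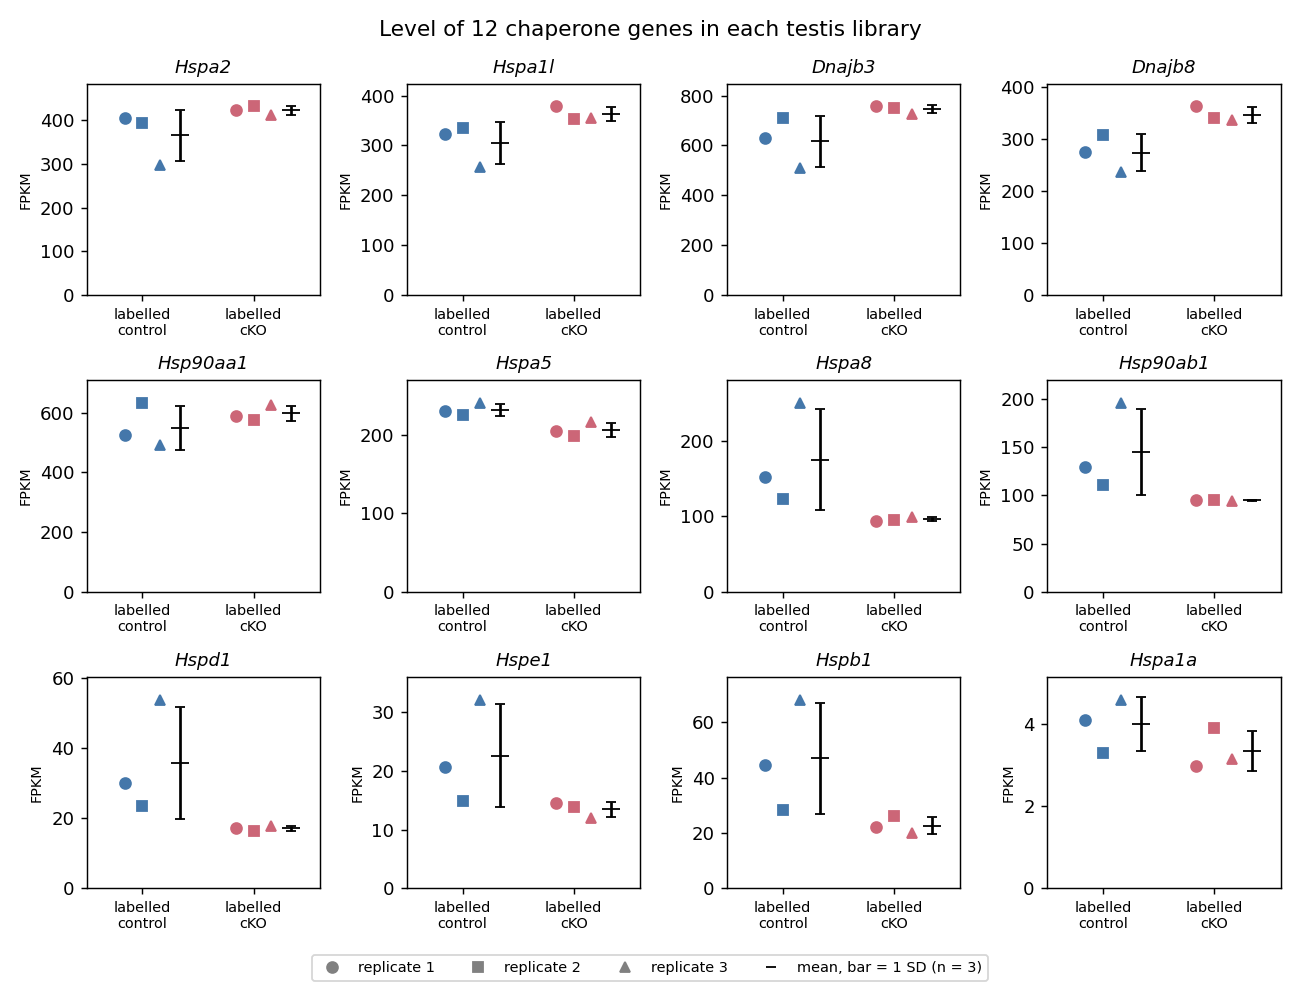
FPKM (linear axis from 0) of 12 members in each library, with circles, squares and triangles for replicates 1, 2 and 3, the mean as a black dash and bars of 1 SD (n = 3). Among the labelled-control libraries, replicate 3 is the lowest for Hspa2 (298) and the highest for Hspa8 (251) and Hspd1 (53.9), and the 3 labelled-cKO libraries lie close together.

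Heat shock motifs were found near the start of most stress-induced members. Most testis members held neither motif searched, as is the case for most genes. Heat shock factors bind repeats of nGAAn in alternating orientation, and cyclic AMP response elements (CRE) bind CREB and CREM, the second of which acts in spermatids. Windows from 250 bases before to 50 after the start, from RefSeq (GRCm38.p6), were at hand for 60 of the 74 members. A pair of inverted heat shock units (GAANNTTC or TTCNNGAA, each its own reverse complement) was in the window of 5 of 6 stress-induced members and 1 of 9 testis members. It was in 3 of 5 small heat shock members outside these roles, 16 of 60 members in all and 17.0% of all genes. Of the 5 stress-induced members, Hspa1a and Hspa1b are near-identical copies and count separately. A run of 3 units, which by construction holds overlapping pairs, was in 0.662% of all genes and in 4 members, Hspd1, Hspe1, Hsph1 and Dnajb6. The runs of Hspd1 and Hspe1 are the same bases read from opposite strands, and they count for each gene, also among the 16 with a pair. A CRE (TGACGTNA or TNACGTCA, covering both strands) was in 3.36% of all genes and in 3 members, Hspa1l, Hspa5 and Dnajc27. A match is a description of these letters and not a measured binding site.

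The 120 bases before the start are shown for 3 neighbours on chromosome 17, where Hspa1a and Hspa1l start 547 bases apart on opposite strands, then for Dnajb8 and Hspb1, the testis and stress-induced members with the lowest p. For Hspe1, 30 bases with a run of heat shock units are shown. All read 5′ to 3′ on the gene's strand, with the CRE or the heat shock units in capitals.
Hspa1l (chr17:34972583-34972702, plus strand): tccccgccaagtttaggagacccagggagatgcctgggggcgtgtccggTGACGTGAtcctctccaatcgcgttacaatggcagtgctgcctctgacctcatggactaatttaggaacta
Hspa1a (chr17:34972157-34972276, minus strand): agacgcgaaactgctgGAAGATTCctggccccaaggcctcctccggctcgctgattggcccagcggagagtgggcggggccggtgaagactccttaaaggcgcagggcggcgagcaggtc
Hspa1b (chr17:34959239-34959358, minus strand): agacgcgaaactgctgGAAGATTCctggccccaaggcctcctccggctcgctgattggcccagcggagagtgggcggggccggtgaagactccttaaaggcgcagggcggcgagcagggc
Dnajb8 (chr6:88222148-88222267, plus strand): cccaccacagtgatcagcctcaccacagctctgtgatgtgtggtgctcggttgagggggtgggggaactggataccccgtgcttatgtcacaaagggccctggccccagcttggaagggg
Hspb1 (chr5:135887799-135887918, plus strand): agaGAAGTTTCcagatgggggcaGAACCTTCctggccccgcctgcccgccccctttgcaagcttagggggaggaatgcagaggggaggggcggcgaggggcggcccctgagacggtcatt
Hspe1 (chr1:55088053-55088082, plus strand): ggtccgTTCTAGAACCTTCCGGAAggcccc
Hspa1a and Hspa1b were identical at 247 of 250 upstream bases, and the transcripts are near-identical copies as well, so the split of reads between them is uncertain.

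The stress-induced members were mixed in direction. Of 7, 4 had a positive and 3 a negative log2 fold change, with a median of 0.13. The inducible Hsp70 genes, whose promoters are shown above beside that of Hspa1l, were among the least abundant members: Hspa1a had 4.11, 3.30 and 4.60 FPKM in the labelled-control libraries and 2.99, 3.91 and 3.15 in the labelled-cKO libraries, and Hspa1b 2.64, 1.15 and 3.95 against 1.57, 1.5 and 0.65. Both overlapped between groups. Neighbouring Hspa1l, also on chromosome 17, stood at 258 to 379 FPKM, so within 22800 bases the 3 genes of this cluster spanned the range from rare to abundant transcripts.

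Hspb1, the small heat shock protein also called Hsp25 or Hsp27, was the stress-induced member with the lowest p. It stood at 44.7, 28.2 and 68.3 FPKM in the labelled-control libraries and 22.0, 26.0 and 19.9 in the labelled-cKO libraries, all 3 below (log2 -0.95, SE 0.29; adjusted p = 0.166 in edgeR and 0.0268 in DESeq2). Without the library labelled control replicate 3 the log2 fold change was -0.59. Dnajb4 had 60.1, 68.7 and 59.7 FPKM against 70.4, 69.7 and 71.4, with no overlap (log2 0.26, SE 0.10; edgeR adjusted p = 0.171). Dnajb1, the main stress-induced Hsp40, had log2 0.24, and Hsph1, an Hsp110 nucleotide exchange factor, 0.13. The Hsp90 gene Hsp90aa1, heat-inducible in many cells, stood at 524, 633 and 491 FPKM against 589, 576 and 627, with overlap, and was the second most abundant member.

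The ubiquitous cytosolic chaperones Hspa8 and Hsp90ab1 stood lower in the labelled-cKO libraries. Hspa8 (Hsc70, chromosome 9, 40801276 to 40805202, plus strand) had 152, 123 and 251 FPKM in the labelled-control libraries and 94.5, 95.9 and 99.6 in the labelled-cKO libraries. All 3 labelled cKO were below, and replicate 3 stood far above the other labelled-control libraries (log2 -0.76, SE 0.23; adjusted p = 0.166 in edgeR and 0.0295 in DESeq2; log2 -0.42 without that library). Hsp90ab1 had 129, 111 and 196 FPKM against 94.9, 95.4 and 94.7, again with no overlap (log2 -0.51, SE 0.19; edgeR adjusted p = 0.167; log2 -0.25 without control replicate 3). Both were ordered 3, 1, 2 among the labelled-control libraries, an order shared by 34.7% of all genes and by the Leydig and Sertoli sums, whose part here was not tested. The 12 members of this role, with Hspa8 and Hsp90ab1 among them, leaned both ways. Of the 12, 7 were positive and 5 negative, and 6 and 6 when counts were scaled by library totals. Dnajb2, with 102 ± 13.1 against 120.4 ± 4.24 FPKM, and Dnajb6, with 208 ± 26.0 against 238 ± 7.31 (SD, n = 3 each), were the positive members of highest abundance.

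**Figure D3:**
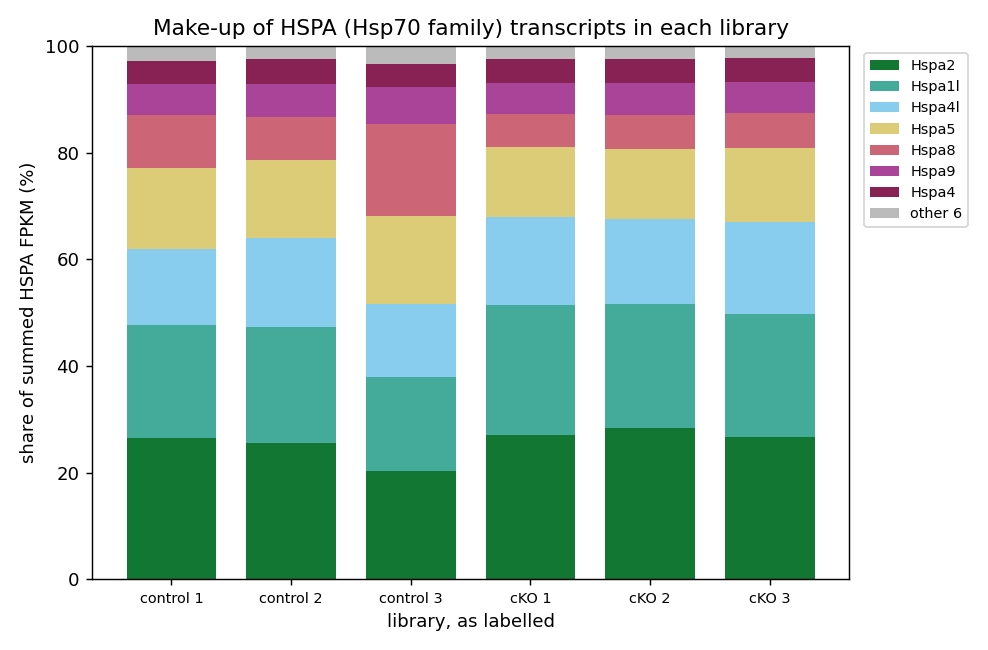
Share (%) of each of the 13 HSPA genes in the summed FPKM of the family, in 1 stacked bar per library from 0 to 100%, with the 6 least abundant genes together in grey. Hspa8 takes 17.2% in the library labelled control replicate 3 and 6.06 to 6.45% in the labelled-cKO libraries, while Hspa2 takes 20.4% and 26.7 to 28.4%.

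Several shares within the Hsp70 family did not overlap between groups, and its sum did not stand apart. Summed FPKM of the 13 HSPA genes was 1510.4 ± 42.7 in the labelled-control libraries and 1542 ± 19.6 in the labelled-cKO libraries (SD, n = 3 each; exact permutation p = 0.4, with overlap). Within it, Hspa2 took 26.5, 25.5 and 20.4% against 27.1, 28.4 and 26.7%. Hspa1l took 21.2, 21.7 and 17.6% against 24.3, 23.2 and 23.0%. Hspa8 took 9.97, 8.01 and 17.2% against 6.06, 6.30 and 6.45%. None of these 3 overlapped (two-sided exact permutation p = 0.1 each, raw, over 13 genes compared), though the Hspa2 share of expected counts did overlap. The shares of Hspa5, Hspa13 and Hspa14, lower in the labelled-cKO libraries, did not overlap either. Shares of the same sum depend on one another, so a high share of Hspa8 lowers the rest. On TMM-scaled counts, Hspa5 and Hspa13 overlapped. There, 2 of the 13 genes were higher and 2 lower with no overlap, next to 18 and 19.8% of all genes. Without the library labelled control replicate 3, the difference in the Hspa8 share went from -5.45 to -2.72 percentage points and that in the Hspa2 share from 3.28 to 1.42. The ratio of Hspa2 to Hspa8 FPKM was 2.65, 3.19 and 1.19 against 4.48, 4.51 and 4.14.

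The Hsp90 genes showed a like contrast. Hsp90aa1 made up 60.7, 66.6 and 53.6% of the summed Hsp90 FPKM in the labelled-control libraries and 66.9, 67.2 and 67.9% in the labelled-cKO libraries, and Hsp90ab1 15, 11.7 and 21.4% against 10.8, 11.1 and 10.3%. Neither share overlapped, and in both the library labelled control replicate 2 lay next to the labelled-cKO libraries. These shares depend on one another as well, and on TMM-scaled counts Hsp90aa1 overlapped while Hsp90ab1 did not. Without control replicate 3 the difference in share went from 7.02 to 3.66 percentage points for Hsp90aa1 and from -5.30 to -2.60 for Hsp90ab1. Hsp90b1, the Hsp90 of the endoplasmic reticulum, held 23.7 ± 1.70 and 21.9 ± 0.31% (SD, n = 3 each) with overlap.

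Chaperones of the endoplasmic reticulum differed little gene by gene. Their summed FPKM did not overlap, at 713, 729 and 749 in the labelled-control libraries and 693, 664 and 698 in the labelled-cKO libraries. The log2 ratio of the group means of this sum was -0.092. FPKM takes no TMM scaling, and the median of all genes was itself -0.10 when counts were scaled by library totals. Hspa5 (BiP), the Hsp70 of this compartment and a sensor partner in the unfolded protein response, had 231, 226 and 241 FPKM in the labelled-control libraries and 205, 198 and 216 in the labelled-cKO libraries. These FPKM values did not overlap, but the TMM-scaled counts did (log2 -0.07, SE 0.09; edgeR adjusted p = 0.593). Hsp90b1 had 209, 206 and 229 FPKM against 196, 186 and 201 (log2 -0.04, SE 0.09). Of the 14 members of this role 6 were positive and 8 negative, with a median of -0.057. Dnajc18 (log2 0.31) and Dnajc1, an ER membrane J-protein that reaches the ribosome (log2 -0.44), were the members of lowest p on either side, and neither passed.

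In mitochondria, the chaperonin pair stood lower and the Hsp70 did not stand apart. Hspd1 (Hsp60) and its lid Hspe1 (Hsp10) form the folding chamber of the matrix, and the 2 genes lie head to head on chromosome 1, with annotated ends that overlap by 96 bases. Hspd1 had 30.1, 23.6 and 53.9 FPKM in the labelled-control libraries and 17.2, 16.2 and 17.8 in the labelled-cKO libraries, with no overlap (log2 -0.97, SE 0.27; adjusted p = 0.166 in edgeR and 0.0178 in DESeq2; log2 -0.56 without the library labelled control replicate 3). Hspe1 had 20.8, 14.9 and 32.2 FPKM against 14.5, 13.9 and 11.9, with the same order of the labelled-control libraries (log2 -0.65, SE 0.27; edgeR adjusted p = 0.175; log2 -0.31 without that library). Its FPKM values did not overlap, while its TMM-scaled counts did.

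Hspa9 (mortalin), the Hsp70 that pulls proteins into the matrix, had 89.7, 95.3 and 101 FPKM against 92.0, 93.7 and 91.6. Its log2 fold change was 0.053 (SE 0.09) and turned to -0.047 with library totals and to -0.044 with limma on FPKM. Dnajc15, a J-protein of the inner membrane and the most abundant member of this role, had log2 0.16, and Dnajc4 had the highest fold change of the 10 at 0.45 (SE 0.16; edgeR adjusted p = 0.167). The ratio of Hspa9 to Hspd1 FPKM was 2.98, 4.03 and 1.88 in the labelled-control libraries and 5.34, 5.77 and 5.16 in the labelled-cKO libraries, with no overlap.

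Small heat shock proteins outside the testis and stress-induced roles were of low abundance. Hspb11 is also known as the intraflagellar transport protein Ift25. It stood at 13.3, 15.1 and 15.8 FPKM in the labelled-control libraries and 19.7, 17.5 and 14.5 in the labelled-cKO libraries. These FPKM values overlapped, but the TMM-scaled counts did not (log2 0.32, SE 0.19; edgeR adjusted p = 0.272). Hspb6 had 17.3 ± 2.27 against 17.5 ± 1.56 FPKM (SD, n = 3 each). Hspb8, a partner of Bag3 in chaperone-assisted autophagy, rested on 1 library, with 1.38, 0.40 and 5.20 FPKM against 0.51, 0.60 and 0.39. Its log2 fold change was -2.09 (SE 0.81) and -0.73 without the library labelled control replicate 3.

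Among the J-proteins with specialised tasks, Dnajc5, the cysteine string protein of synaptic and other secretory vesicles, had 12.8, 10.3 and 19.9 FPKM in the labelled-control libraries and 8.16, 8.13 and 7.32 in the labelled-cKO libraries, with no overlap (log2 -0.76, SE 0.22; adjusted p = 0.166 in edgeR and 0.0292 in DESeq2; log2 -0.47 without the library labelled control replicate 3). Its testis relatives Dnajc5b and Dnajc5g had positive fold changes, as given above, and were far more abundant, with 211 ± 12.7 and 67.8 ± 2.25 FPKM in the labelled-cKO libraries against 7.87 ± 0.48 for Dnajc5 (SD, n = 3 each). Dnajc2, a ribosome-associated J-protein, had 105, 128 and 102 FPKM against 131, 124 and 128 (log2 0.29, SE 0.12; edgeR adjusted p = 0.179), and Dnajc21, a factor of ribosome assembly, had log2 0.23. Of the 12 members of this role, 6 were positive and 6 negative.

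Of the 3 members in no role, Hspa12a and Hspbap1 had log2 fold changes of -0.25 and 0.20, or -0.14 and 0.035 without the library labelled control replicate 3, and overlapped between groups.

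**Figure D4:**
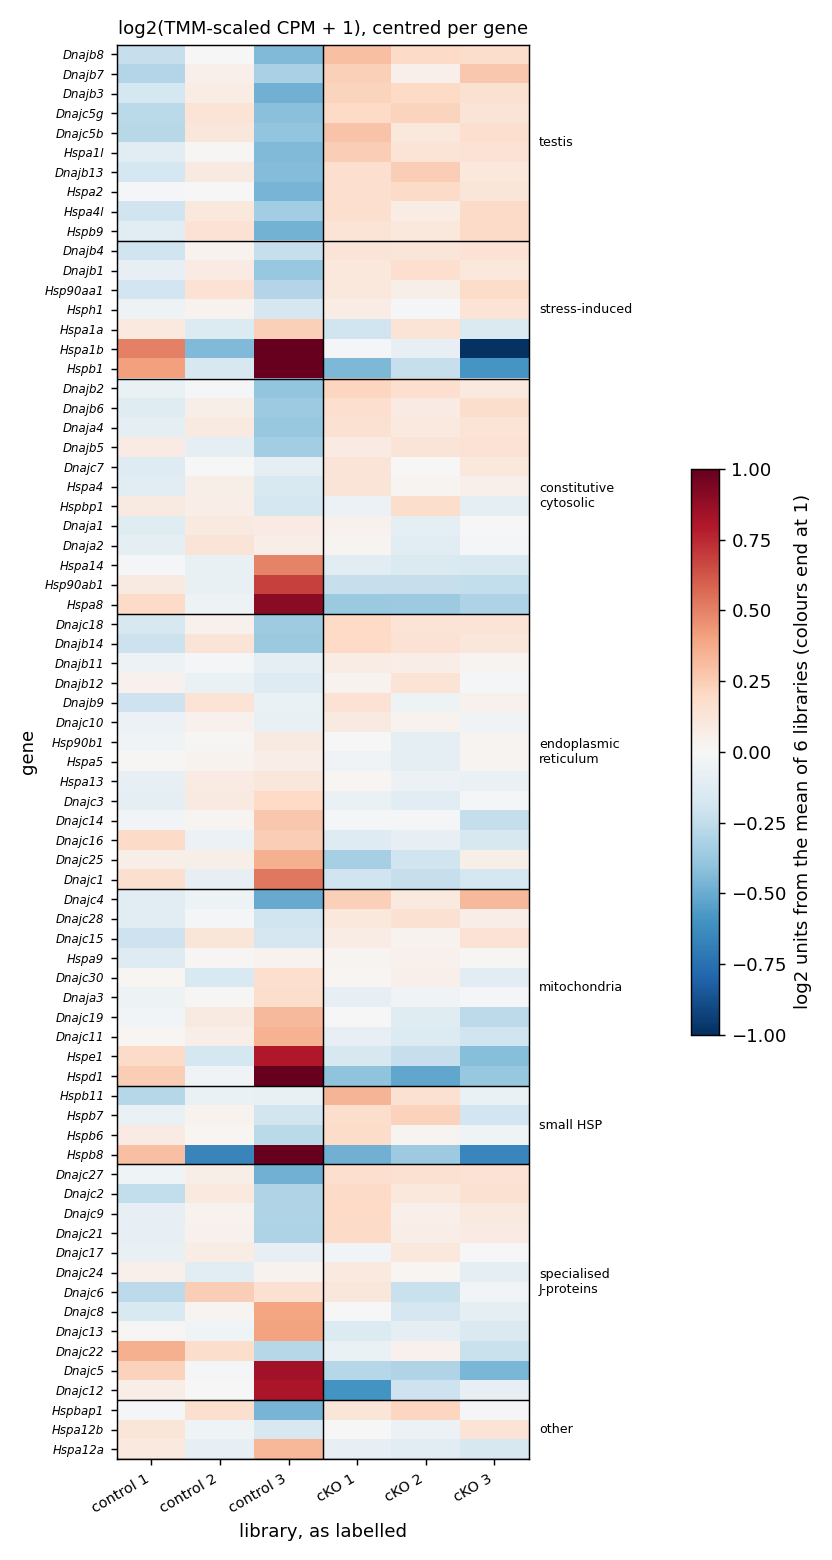
Log2(TMM-scaled CPM + 1) of the 72 members tested (rows, by role and then by fold change) in the 6 libraries (columns), centred on each gene's mean over the libraries, red above and blue below, with colours ending at 1. The library labelled control replicate 3 is the bluest column for the 10 testis members and the reddest for Hspd1, Hspa8 and Hsp90ab1, and was the lowest of all 6 libraries for 36 of 72 members and the highest for 26.

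The spread of the members followed the labelled-control libraries. Replicate 3 was the lowest of the 6 libraries for 36 of 72 members (50%) and the highest for 26 (36.1%), where over all genes it was lowest for 35.6% and highest for 40.9%. Its summed FPKM over all 74 members was 5723, against 6050.5 and 6544 in the other labelled-control libraries and 6406 to 6587 in the labelled-cKO libraries.

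Partner genes outside the symbol rule were read from the same fit, and edgeR called none of the 51 tested of 52 listed (0 at an adjusted p of 0.05; 10 higher and 5 lower at an unadjusted p under 0.05, next to the same shares of all genes as above). The cytosolic chaperonin TRiC, a folding ring for actin and tubulin, leaned 1 way in the main fit. All 9 subunit genes were positive, with a median of 0.26, and 7 did not overlap, next to 18% of all genes. Of all 18269 genes, 9050 were positive. The median was 0.16 with library totals, where Cct6a turned to -0.028, and 0.19 without the library labelled control replicate 3. Tcp1 stood at 521, 602 and 474 FPKM in the labelled-control libraries and 635, 591 and 623 in the labelled-cKO libraries, and Cct6b, the subunit of the testis, at 116, 136 and 98.3 against 142, 143 and 144 (log2 0.38, SE 0.14; edgeR adjusted p = 0.167). Of the heat shock factor genes and their binding proteins, 5 of 5 tested were positive. Hsf5, a factor of spermatocytes, had 56.7, 54.0 and 41.9 FPKM against 60.5, 62.0 and 61.4 (log2 0.37, SE 0.13; edgeR adjusted p = 0.167).

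Among nucleotide exchange factors, which release the client from Hsp70, 6 of 10 were positive. Bag1 had 255, 272 and 239.7 FPKM in the labelled-control libraries and 302, 294 and 291 in the labelled-cKO libraries, with no overlap, whereas Bag2 had 7.44, 6.18 and 11.7 against 4.93, 4.98 and 4.83, lower with no overlap (log2 -0.68, and -0.38 without the library labelled control replicate 3). Of 19 Hsp90 co-chaperones, 9 were positive and 10 negative. Fkbp5, an immunophilin of steroid receptor complexes and a known target of glucocorticoids, was the only partner gene that DESeq2 called. It had 21.6, 14.2 and 36.6 FPKM against 12.4, 11.2 and 10.9 (log2 -0.91, SE 0.28; adjusted p = 0.166 in edgeR and 0.0287 in DESeq2; 0.00934 to 0.377 over the alternative fits), and log2 -0.51 without the library labelled control replicate 3. Among relatives outside the rule, the sperm tail gene Odf1 stood at 972 ± 150.4 against 1177 ± 37.3 FPKM and the small heat shock protein gene Cryab at 3.58 ± 1.85 against 1.54 ± 0.55 (SD, n = 3 each).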

How the data were processed

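The deposited tables hold, per the file headers, an expected count and an FPKM per gene and library. The submitters' processing notes name bcl2fastq 2.16, HISAT2 2.0.4, Bowtie2 2.2.5, RSEM, DESeq2 and mm10, with no role or order. The authors list no gene below 0.01 FPKM, and a missing gene was set to 0. Expected counts (totals 17689205 to 18822050) were rounded and tested in edgeR 4.0.16 (R 4.3.3): filterByExpr defaults (minimum count 10, total 15), TMM, quasi-likelihood F-test, Benjamini-Hochberg adjustment over 18269 genes, no covariate. Single values were compared by exact permutation. Levels are given in the deposited FPKM, which corrects for length and depth. The fit was tested on simulated data. Alternatives were DESeq2 1.42.0, its size factors in edgeR, library totals, limma 3.58.1 on log2 FPKM with 1 or 0.1 added, for genes of at least 1 FPKM in 3 libraries, no filter, a filter of 5 CPM in 3 libraries, each library left out, and the replicate number as a block. The members, roles, marker lists and partner lists were chosen with earlier results of these data known. Named were the testis and stress-induced members, 7 well-known constitutive ones and the 2 most abundant of each other role. Up to 8 members in each direction of lowest p (at least 1 FPKM in the higher group) were named too. For partners the rule took the 2 most abundant per list and those under an adjusted p of 0.05 in any fit. Only some of these partners are named. Dnajc27, Bag3 and the 2 untested members were chosen after their values were seen. No library pair of a group matched within counting noise. Positions and promoters are RefSeq GRCm38.p6, which matched 74 of 74 members by Entrez identifier for positions.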

Additional observations from a re-analysis of the deposited data

How the results depend on the processing

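Of 38 named members, 37 kept their sign in all 14 alternatives that included them. The exception, Hspa9, turned to -0.047 with library totals and to -0.044 with limma at either pseudocount. The count of genes called depended on the tool and on 1 library. DESeq2 called 72 genes higher and 1364 lower, and 1 member higher and 4 lower. Limma called 1 gene higher at either pseudocount. Leaving out each library in turn gave 0 to 2049 genes higher, 0 to 3851 lower, 0 to 17 members higher and 0 to 10 lower, the upper ends without the library labelled control replicate 2. L3mbtl2 passed in DESeq2 (log2 0.69), and its log2 fold change ran from 0.64 to 0.73 with each library left out, passing without control replicate 2. With limma on FPKM it was 0.19 and 0.20 at the 2 pseudocounts. Without the library labelled control replicate 3, the log2 fold changes of 26 of the 38 named members were smaller by over 1.5 times and that of 1 was larger, and none changed sign.

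Scaling by library totals put the median of all genes at -0.10, and the role medians moved with it. With library totals, log2(FPKM + 1) and log2(FPKM + 0.1) in turn, the median was -0.024, -0.0053 and -0.0055 over all members, 0.029, 0.035 and 0.037 for the stress-induced, -0.022, -0.018 and -0.019 for the constitutive cytosolic, -0.157, -0.150 and -0.156 for the endoplasmic reticulum and -0.049, -0.053 and -0.066 for the members in no role. For mitochondria it was -0.166 with totals and -0.158 with log2(FPKM + 0.1), and it turned to 0.015 without control replicate 3, and for the specialised J-proteins -0.160 with totals and 0.026 with the stricter filter. With each library left out it ran from 0.046 to 0.136 for the constitutive cytosolic and from -0.13 to 0.0019 for the specialised J-proteins, positive in the second without control replicate 2 (0.0017) or 3 (0.0019). The cause was not tested.

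The replicate numbers did not pair the libraries: deviations of same-numbered libraries correlated at 0.043, -0.0067 and -0.039. With the replicate block edgeR called 0 genes higher and 0 lower, and no named member changed sign or passed. Depth limits the rarest members, such as Hspa1b, Hspb8 and the untested Hspb2 and Hspb3.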
